A study of Mus musculus with 8 samples.

Results

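The cytosolic ribosome is built from ribosomal RNA and a set of small, mostly basic proteins, named Rps for the small subunit and Rpl for the large subunit. The genes of these proteins are among the most active in a growing cell. Their mRNAs carry a pyrimidine-rich start that lets mTOR signalling set their translation, MYC raises the output of many genes of the ribosome, and free ribosomal proteins can bind Mdm2 and so stabilise p53. Osteoclasts form when macrophages, kept alive by M-CSF, receive the cytokine RANKL, fuse and begin to make large amounts of secreted enzymes.

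Cytosolic ribosomal protein genes were taken as the genes whose array symbol is Rpl or Rps followed by a number, or Rplp0, Rplp1, Rplp2 or Rpsa, without the S6 kinases and pseudogenes. They had to be detected, with a detection p-value under 0.05, on 2 or more of the 8 arrays, and the probe with the highest mean signal stood for each gene. Of 66 symbols that matched, 60 were detected, 24 of the small and 36 of the large subunit, among 8663 detected genes in all. On all 8 arrays, 57 of the 60 were detected. One symbol that the rule takes in, Rps19bp1, belongs to a binding protein of Rps19 and not to a subunit of the ribosome.

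The cells were bone marrow-derived macrophages of C57BL/6 mice aged 6 to 8 weeks. Marrow was first kept for 16 h in medium with 10% serum and 5 ng/ml M-CSF, and the non-adherent cells were then grown for 3 days in 30 ng/ml M-CSF. The adherent cells were the starting macrophages, and the 4 groups received 30 ng/ml M-CSF and 50 ng/ml RANKL for 0, 1, 2 or 3 days, with 2 arrays a day. No arrays of cells in M-CSF alone at days 1 to 3 were analysed here, so RANKL and time in culture cannot be told apart. Whether the 2 replicates of a day came from different mice or dishes is not in the labels. The p-values therefore reflect the spread between the arrays at hand, and that spread may be technical.

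The arrays were alike in quality: 43.9 to 44.2% of 25697 probes were detected on each, arrays of the same day correlated at 0.994 to 0.996 and arrays of different days at 0.881 to 0.986. Of 10 osteoclast marker genes 9 were tested, and their summed linear intensity was 8.30e+04 to 8.37e+04 at day 3 and 1.10e+03 to 1.25e+03 at day 0; 8 of the 9 were called higher at day 3, all but Itgb3, which neither day 3 array detected. Of the 8 macrophage symbols 5 were tested, with sums of 2.09e+03 to 2.14e+03 at day 3 and 1.37e+04 to 1.54e+04 at day 0, and 4 were called lower. Marker sums of granulocyte precursors (8 of 10 tested) were 365 to 369 at day 3 and 1.33e+03 to 1.43e+03 at day 0. Sums of B lineage markers (2 of 6) were 70.5 to 72.4 at day 3 and 199 to 222 at day 0, those of T and NK cells (2 of 9) 121 to 128 at day 3 and 1.34e+03 to 1.35e+03 at day 0, and those of erythroid cells and megakaryocytes (2 of 8) 108 to 121 at day 3 and 1.65e+03 to 2.05e+03 at day 0. Dendritic cell markers (3 of 7) summed to 91.5 to 96.5 at day 3 and 174 to 227 at day 0. The genes behind these sums did not all move together. At day 3, of the 2 T and NK genes 1 was called higher and 1 lower than at day 0. Of the 3 dendritic cell genes 1 was called higher and 2 lower, where 29.2% of all genes tested rose and 29.8% fell. The sums of 2 further lists were highest at days 1 and 2. The 1 tested mast cell and basophil gene of 5, Gata2, lay between 23.7 and 24.1 at day 0, between 51.1 and 58.0 at day 1, between 45.6 and 63.9 at day 2 and between 29.8 and 37.1 at day 3. For the 3 tested osteoblast and stromal genes of 8 the array sums were 119 and 150 at day 0, 262 and 275 at day 1, 231 and 260 at day 2, and 135 and 175 at day 3; of the 3, Dcn was called higher at day 1 (2.61 ± 0.18, limma adjusted p = 6.37e-05). The part of these other cells in the changes below was not tested. In bulk RNA, fewer cells of a type and less RNA per cell cannot be told apart.

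Promoter windows are shown for the members with the largest rises and falls at day 3, 3 of each, since all of them carry the name of a ribosomal protein and they moved in opposite directions. Windows of 300 bases around the annotated start, from RefSeq on GRCm38.p6, were matched for 52 of the 60 members; the stretches printed hold 80 bases before and 20 bases from the start, 5′ to 3′ on the gene's strand. Capitals mark matches to the motifs searched, which were the ETS core CCGGAAG, the YY1 site AAGATGGC, the GC box GGGCGG, the E-box CACGTG and the TATA box TATAAA on both strands, and a run of 6 or more C or T letters that holds the start.
Rpl3l, rose, chr17:24727746-24727845, plus strand: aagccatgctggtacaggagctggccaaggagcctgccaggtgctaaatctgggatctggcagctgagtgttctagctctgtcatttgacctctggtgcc
Rpl13a, rose, chr7:45128726-45128825, minus strand: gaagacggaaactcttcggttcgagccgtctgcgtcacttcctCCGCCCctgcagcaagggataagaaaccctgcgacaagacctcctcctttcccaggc
Rplp0, rose, chr5:115559387-115559486, plus strand: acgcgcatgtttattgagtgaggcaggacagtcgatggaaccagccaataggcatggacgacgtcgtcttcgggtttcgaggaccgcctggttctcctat
Rps15a, fell, chr7:118116128-118116227, minus strand: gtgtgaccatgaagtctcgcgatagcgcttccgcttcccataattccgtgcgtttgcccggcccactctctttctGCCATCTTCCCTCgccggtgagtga
Rps27l, fell, chr9:66946006-66946105, plus strand: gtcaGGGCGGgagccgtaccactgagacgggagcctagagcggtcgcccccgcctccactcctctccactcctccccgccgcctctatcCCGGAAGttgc
Rpl7l1, fell, chr17:46782637-46782736, minus strand: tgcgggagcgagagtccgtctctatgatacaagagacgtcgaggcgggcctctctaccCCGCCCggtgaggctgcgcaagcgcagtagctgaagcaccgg

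The capitals in the Rps15a stretch hold a YY1 match on the reverse strand that overlaps the pyrimidine run at the start. The Rpl3l stretch had none of these motifs, and its full window of 300 bases had none either. Over the 52 member windows, the ETS core was in 36.5%, against 9.14% of 27025 genes with a window; the YY1 site was in 11.5% against 2.87%, the GC box in 61.5% against 35.9%, and the pyrimidine run at the start in 25.0% against 7.09%. The E-box was in 7.69% of member windows and in 7.24% of all windows, and the TATA box in 11.5% and 14.2%. The 27025 genes were taken whether or not they were detected here, while the members were all detected. These shares therefore do not separate the members from other detected genes. Where a gene had several windows, only the most upstream was used. The median log2 change at day 1 was 0.59 in the 6 members with the YY1 site and 0.15 in those without it, and at day 3 it was -0.05 and -0.07. For the other motifs the day 1 medians with and without a match were 0.16 and 0.19 for the ETS core, 0.17 and 0.18 for the GC box, 0.15 and 0.17 for the E-box, 0.22 and 0.17 for the TATA box, and 0.13 and 0.18 for the pyrimidine run. None of these differences was tested. A match is a description of the letters, not of a bound factor.

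At day 1, ribosomal protein mRNAs were higher or did not pass the test; none passed it as lower. In the limma fit over all genes, with Benjamini-Hochberg adjustment and a threshold of 0.05, 18 of the 60 members rose and 0 fell against day 0, where 24.0% of all genes tested rose and 21.9% fell. At an unadjusted p under 0.05, 20 rose and 0 fell. The median log2 change of the members was 0.17, and that of all genes tested 0.03. By the probe that stood for each gene, the rises were small: only Rpl13a changed 2-fold or more. The members' changes had an SD of 0.30 against 0.81 over all genes. Their share of the total signal of tested genes was 7.72% and 7.85% at day 1 against 6.89% and 7.14% at day 0. Second, dimmer probes of Rps19, Rps24 and Rpl29 rose by 1.62, 1.42 and 1.09, and that of Rps9 changed by 0.19. Without the members in the top 1% of signal, 19 were left, with a median of 0.56 and 13 rises. Both day 1 arrays lay above both day 0 arrays for 45 members, 75.0% of them, and below for 3, where 38.8% of all genes tested lay above and 34.0% below. The share of members called in either direction, 30.0%, was under that of all genes tested, 45.9%.

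**Figure D1:**
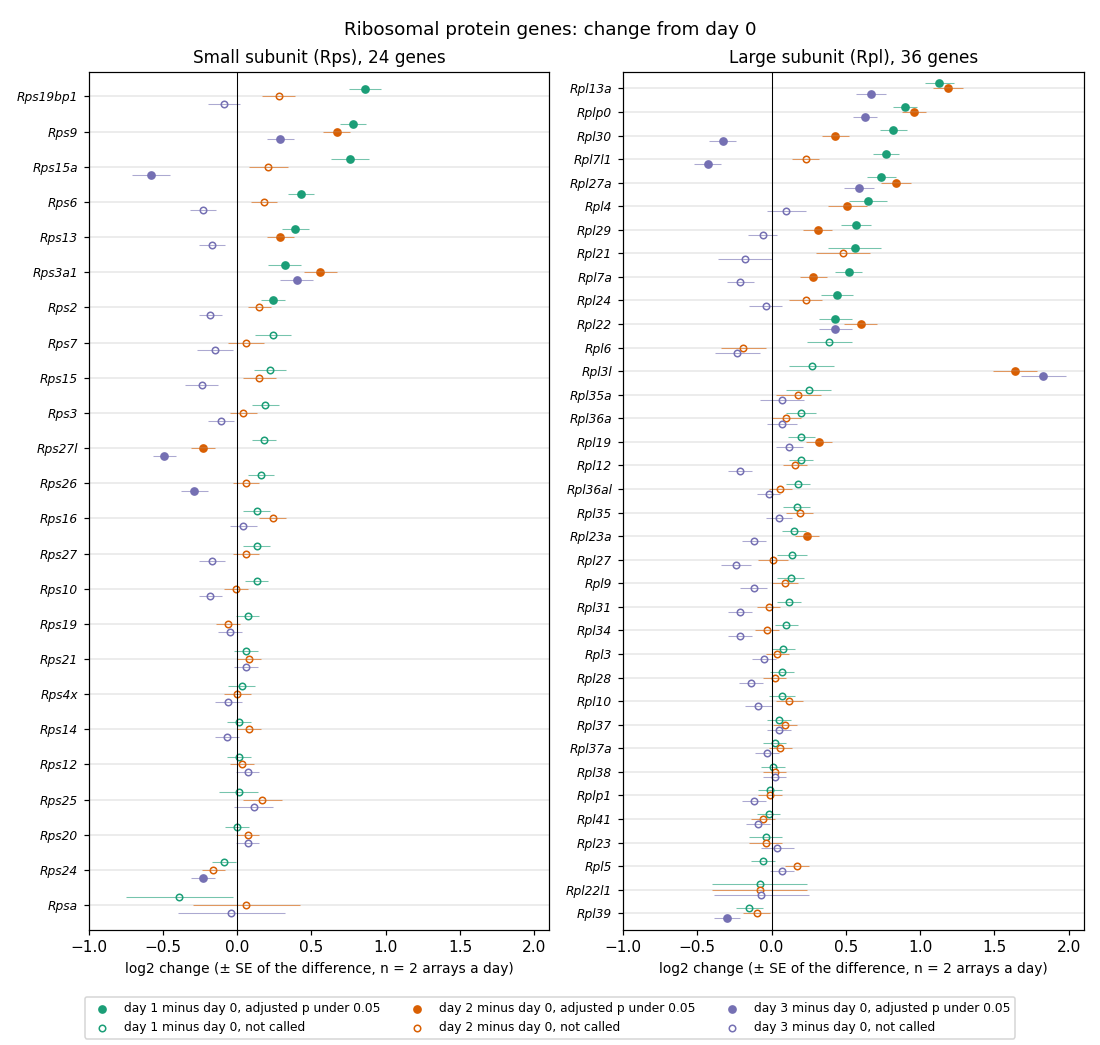
Log2 change of each of the 60 ribosomal protein genes from day 0 to days 1, 2 and 3 (horizontal axis; bars are the SE of the difference, 2 arrays a day), with filled points for an adjusted p under 0.05. At day 1 all 18 filled points lie right of 0, and at day 3 they are 7 on each side.

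The day 1 level did not last. At day 2, 14 members were higher and 1 lower than at day 0, where 27.8% of all genes tested were called higher and 26.6% lower, and the members' median was 0.10 against 0.02. At day 3, 7 were higher and 7 lower than at day 0, with 29.2% and 29.8% of all genes tested, and the members' median was -0.07 against -0.01. Between days 2 and 3, 0 members rose and 15 fell, where 10.6% of all genes tested rose and 11.3% fell; the members' median was -0.18 against -0.01, and both day 3 arrays lay below both day 2 arrays for 45 members, and above for 0, against 32.5% and 30.5% of all genes tested. At an unadjusted p under 0.05, 0 rose and 23 fell. Between days 1 and 2, 1 member rose and 6 fell, where 23.3% of all genes tested rose and 25.0% fell, with a median of -0.05 against -0.02. By arrays alone, both day 2 arrays lay above both day 0 arrays for 33 members and below for 3 (39.4% and 37.4% of all genes tested), and both day 3 arrays above for 13 and below for 27 (38.1% and 39.3%). All comparisons with day 0 share its 2 arrays, and consecutive ones share arrays too.

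Single arrays moved these counts. With any 1 array left out, fewer of all genes tested were also called, both against day 0 and between days 2 and 3. The drop in calls was therefore not particular to the members. The members' median between days 2 and 3 was then -0.21 to -0.16, against -0.18 with all arrays. Falls between days 2 and 3 numbered 2 without day 2 replicate 1, 3 without day 3 replicate 2, 4 without day 2 replicate 2, and 8 without day 3 replicate 1 or either day 1 array. Rises at day 2 numbered 9 without either day 0 array or day 2 replicate 2, rises at day 3 numbered 4 without day 3 replicate 1, and falls at day 3 numbered 3 without day 0 replicate 2 or day 3 replicate 2. Falls between days 1 and 2 numbered 3 without day 2 replicate 2. The single fall at day 2 was not called without any 1 of the 8 arrays. Rises at day 1 numbered 12 to 16, and falls 0, or 1 without day 0 replicate 1. With an intensity trend and robust variances in limma, 29 members rose and 0 fell at day 1, where 26.7% of all genes tested rose and 23.8% fell. In that fit 33 members fell and 0 rose between days 2 and 3, where 15.7% of all genes tested fell and 13.8% rose. Scaling mattered too. Median scaling in place of quantile normalization moved the median of all genes tested to 0.12 at day 1, -0.13 between days 1 and 2, and -0.10 at day 3. Relative to that median, the members' median at day 3 was 0.08, against -0.06 with quantile normalization, and the step from day 2 to day 3 was -0.06 against -0.17, with 10 members called lower where 6.71% of all genes tested rose and 14.9% fell. With cyclic loess, 9 members rose and 2 fell at day 2, where 25.0% of all genes tested rose and 29.2% fell. Between days 2 and 3, 7 members then fell and 0 rose, where 9.82% of all genes tested fell and 11.6% rose. The members' median for that step was -0.06, against 0.01 for all genes tested.

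A moderated F test over the 4 days called 28 of the 60 members, 46.7%, against 72.4% of all genes tested. Of the 28, 21 peaked at day 1, 6 at day 2 and 1 at day 3, while 20 were lowest at day 3 and 8 at day 0. Of the 6271 genes called in all, 27.3% peaked at day 1 and 34.0% were lowest at day 3.

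The stalk of the large subunit recruits the elongation factors and is made of Rplp0, its base, with Rplp1 and Rplp2. Rplp0 measured 8.80 and 8.81 on the log2 intensity scale at day 0, 9.69 and 9.72 at day 1, 9.74 and 9.80 at day 2, and 9.41 and 9.46 at day 3. Every array with RANKL lay above both day 0 arrays, and day 3 lay between day 0 and day 2. Rplp0 rose by 0.90 ± 0.08 at day 1 (SE; limma adjusted p = 0.000154), was 0.96 ± 0.08 above day 0 at day 2 (adjusted p = 6.05e-05) and 0.63 ± 0.08 above it at day 3 (adjusted p = 0.000410).

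The fall of Rplp0 between days 2 and 3 was 0.34 (adjusted p = 0.0268), and it missed the threshold, at changes of -0.36 to -0.31 and adjusted p of 0.0524 to 0.122, when either day 1, either day 2 or either day 3 array was left out. Its partner Rplp1, among the brightest probes of the arrays, measured 15.19 and 15.23 at day 3 and 15.32 and 15.34 at day 0, with changes from day 0 of -0.01, -0.01 and -0.12 that were not called. Rplp2 was not detected on any array.

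Rpl13a is a protein of the large subunit that is also part of the interferon-gamma translational brake described in human monocytes. By the probe that stood for each gene, it had the largest rise at day 1. It measured 11.26 and 11.40 at day 0, 12.42 and 12.51 at day 1, 12.55 and 12.50 at day 2, and 12.06 and 11.93 at day 3. Arrays of the 3 later days all lay above those of day 0. The rises were 1.13 ± 0.10 at day 1 (2.19-fold, limma adjusted p = 0.000143), 1.19 ± 0.10 at day 2 (2.29-fold, adjusted p = 5.95e-05) and 0.67 ± 0.10 at day 3 (1.59-fold, adjusted p = 0.000885). It fell by 0.53 between days 2 and 3 (adjusted p = 0.0130), a call that was lost without either day 2 array or day 3 replicate 2, with adjusted p of 0.0580 to 0.0754.

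Rpl27a, a large subunit protein, held its rise in the same way. Its values were 10.48 and 10.44 at day 0, 11.20 and 11.20 at day 1, 11.19 and 11.41 at day 2, and 11.04 and 11.07 at day 3. The changes from day 0 were 0.74, 0.84 and 0.59 (SE 0.10; limma adjusted p = 0.000906, 0.000337 and 0.00155). A second Rpl27a probe, detected on 2 arrays, was not called at any day, and with the mean of both probes the day 3 change was 0.24 (adjusted p = 0.182).

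Rpl22, which binds small viral and cellular RNAs besides its place in the large subunit, measured 9.79 and 9.93 at day 0, 10.27 and 10.31 at day 1, 10.34 and 10.58 at day 2, and 10.32 and 10.26 at day 3. All later arrays were above day 0. Its changes were 0.43 ± 0.11 at day 1, 0.60 ± 0.11 at day 2 and 0.43 ± 0.11 at day 3 (limma adjusted p = 0.0169, 0.00306 and 0.0119). The day 1 call was lost without day 0 replicate 1 or either day 1 array (0.36 to 0.45, adjusted p of 0.0602 to 0.0818), and the day 3 call without day 0 replicate 1 (0.36, adjusted p = 0.0624) or day 3 replicate 1 (0.40, adjusted p = 0.0558), with median scaling (0.27, adjusted p = 0.0777) and without normalization (0.22, adjusted p = 0.190). Its paralogue Rpl22l1 was dim, detected on 6 of 8 arrays, with changes of -0.08, -0.08 and -0.07 and an SE of 0.32.

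Rpl30 shows the other course, a rise that was given up. Rpl30, a large subunit protein known in yeast for repressing the splicing of its own transcript, measured 11.43 and 11.50 at day 0, 12.31 and 12.26 at day 1, 11.89 and 11.90 at day 2, and 11.21 and 11.05 at day 3. It was 0.82 ± 0.09 above day 0 at day 1 (limma adjusted p = 0.000425), 0.43 above at day 2 (adjusted p = 0.00560) and 0.33 below at day 3 (log2 change -0.33, adjusted p = 0.0155). The day 3 call was lost without day 0 replicate 2 (-0.30, adjusted p = 0.0664) or day 3 replicate 2 (-0.25, adjusted p = 0.0842), and with the 4 arrays of those days alone (-0.33, adjusted p = 0.0590). It fell by 0.38 between days 1 and 2 (adjusted p = 0.0112), a call lost without day 1 replicate 1 or either day 2 array (-0.39 to -0.36, adjusted p of 0.0511 to 0.0626), and by 0.77 between days 2 and 3 (adjusted p = 0.00368).

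Rpl4 and Rpl39 line the tunnel through which the new protein chain leaves the ribosome. Rpl4 measured 11.10 and 10.90 at day 0, 11.74 and 11.57 at day 1, 11.38 and 11.65 at day 2, and 11.09 and 11.11 at day 3. Its steps of -0.14 between days 1 and 2 and -0.41 between days 2 and 3 were not called (limma adjusted p = 0.404 and 0.0604). It rose by 0.65 ± 0.13 at day 1 (limma adjusted p = 0.00559), was 0.51 above day 0 at day 2 (adjusted p = 0.0127) and 0.10 above at day 3 (not called), and the day 2 call was lost without day 0 replicate 2 (0.41, adjusted p = 0.0692) or day 2 replicate 2 (0.38, adjusted p = 0.0756).

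Rpl39, read by a brighter probe (mean log2 intensity 14.28 against 11.32 for Rpl4), did not share that rise. The part of probe brightness in this contrast was not tested. Rpl39 measured 14.34 and 14.49 at day 0, 14.26 and 14.27 at day 1, 14.38 and 14.25 at day 2, and 14.12 and 14.10 at day 3. The day 3 change was -0.30 ± 0.09 (limma adjusted p = 0.0258), which was not called without day 0 replicate 2 (-0.23, adjusted p = 0.118) or either day 3 array (-0.31 and -0.30, adjusted p = 0.0746 and 0.0884), nor under median scaling (-0.15, adjusted p = 0.284), cyclic loess (-0.16, adjusted p = 0.204) or no normalization (-0.21, adjusted p = 0.132). Rpl17, at the same tunnel, was not detected on any array, nor was Rpl39l.

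Rpl7l1, a relative of Rpl7 described in human cells as an assembly factor of the large subunit, was higher at day 1 and lower at day 3. It measured 10.98 and 10.91 at day 0, 11.66 and 11.77 at day 1, 11.14 and 11.21 at day 2, and 10.53 and 10.50 at day 3. Day 1 lay above every other array and day 3 below every other. The changes from day 0 were 0.77 ± 0.09 at day 1 (limma adjusted p = 0.000461), 0.23 at day 2 (not called) and -0.43 ± 0.09 at day 3 (adjusted p = 0.00419), and it fell by 0.54 between days 1 and 2 (adjusted p = 0.00215) and by 0.66 between days 2 and 3 (adjusted p = 0.00478). A second, dimmer probe of Rpl7l1 had a change of 0.37 at day 3, and the mean of both probes -0.03 (adjusted p = 0.808).

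Rpl5, which with Rpl11 and 5S RNA forms the particle that binds Mdm2, measured 13.79 and 13.81 at day 0, 13.78 and 13.70 at day 1, 13.96 and 13.99 at day 2, and 13.83 and 13.92 at day 3. None of its changes from day 0 (-0.06, 0.17 and 0.07) was called. Mdm2 itself was higher at day 1 (0.82 ± 0.09, limma adjusted p = 0.000422) and lower at days 2 (-0.41, adjusted p = 0.00706) and 3 (-0.37, adjusted p = 0.0101), and the p53 target Cdkn1a was lower at all of them (-0.75, -1.77 and -1.20).

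Rpl3l had the largest change of all members and a course of its own. It encodes the form of Rpl3 known from heart and skeletal muscle. The log2 values were 5.95 and 5.93 at day 0, 6.36 and 6.06 at day 1, 7.51 and 7.65 at day 2, and 7.96 and 7.58 at day 3. Days 2 and 3 lay above both earlier days, and all 8 arrays detected it. The change was 0.27 ± 0.15 at day 1 (limma adjusted p = 0.204), 1.64 ± 0.15 at day 2 (3.11-fold, adjusted p = 0.000132) and 1.83 ± 0.15 at day 3 (3.55-fold, adjusted p = 6.18e-05), with a rise of 1.37 between days 1 and 2 (adjusted p = 0.000494). The size depended on the background: without background correction the changes were 0.71 at day 2 and 0.82 at day 3 (limma adjusted p = 2.08e-06 and 3.13e-07), and in the authors' processed values 0.99 and 1.12 (adjusted p = 4.31e-05 and 1.43e-05). The probe was dim, with raw signals of 316 and 350 at day 3 and of 200 and 204 at day 0.

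The gene that directly precedes Rpl3l on chromosome 17, on the opposite strand, is Ndufb10, a subunit of respiratory complex I. Ndufb10 changed by 0.47 ± 0.15 at day 1, 1.72 ± 0.15 at day 2 and 1.73 ± 0.15 at day 3 (limma adjusted p = 0.0384, 8.77e-05 and 6.71e-05). The next gene on the other side, Msrb1, was lower at all 3 days (-0.52, -0.59 and -0.57), and Rps2, one gene further on the Ndufb10 side, changed by 0.24, 0.15 and -0.18. The part of the neighbour in the Rpl3l probe's signal was not tested. Rpl3 itself, the form used in most tissues, measured 14.47 and 14.42 at day 3 and 14.47 and 14.52 at day 0, with changes of 0.08, 0.04 and -0.05 that were not called.

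Rps9 is a small subunit protein known in yeast for a part in decoding accuracy. By the probe that stood for each gene, it had the largest day 1 rise among the true small subunit proteins. It measured 13.45 and 13.55 at day 0, 14.25 and 14.30 at day 1, 14.18 and 14.15 at day 2, and 13.88 and 13.70 at day 3. Later arrays were all above those of day 0. The changes were 0.78 ± 0.09 at day 1 (limma adjusted p = 0.000681), 0.67 ± 0.09 at day 2 (adjusted p = 0.000954) and 0.29 ± 0.09 at day 3 (adjusted p = 0.0327), the last of which was lost when any array but day 3 replicate 2 was left out (0.20 to 0.34, adjusted p of 0.0524 to 0.159). With its dimmer probe the changes at days 1 and 2 were 0.19 and 0.42, and neither was called (limma adjusted p = 0.391 and 0.0676).

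Rps15a, a small subunit protein, had the largest fall at day 3. It measured 6.58 and 6.41 at day 0, 7.18 and 7.34 at day 1, 6.87 and 6.55 at day 2, and 5.88 and 5.95 at day 3. Day 1 lay above all other arrays and day 3 below all others. It was 0.76 ± 0.13 above day 0 at day 1 (limma adjusted p = 0.00350), 0.21 above at day 2 (not called) and changed by -0.58 ± 0.13 at day 3 (adjusted p = 0.00765). The fall of 0.55 between days 1 and 2 (adjusted p = 0.0132) was lost without day 1 replicate 2 (-0.47, adjusted p = 0.0785) or day 2 replicate 2 (-0.39, adjusted p = 0.0706).

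The further fall of Rps15a between days 2 and 3, by 0.79 (limma adjusted p = 0.00969), was lost without day 2 replicate 1 (-0.64, adjusted p = 0.0537). This probe too was dim, at 191 and 201 raw units at day 3 against 224 and 241 at day 0, and in the authors' processed values its day 3 change was -0.17 (adjusted p = 0.149). Rps15, which shares only its name, measured 13.51 and 13.51 at day 3 and 13.66 and 13.86 at day 0, with changes of 0.22, 0.15 and -0.24 that were not called.

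**Figure D2:**
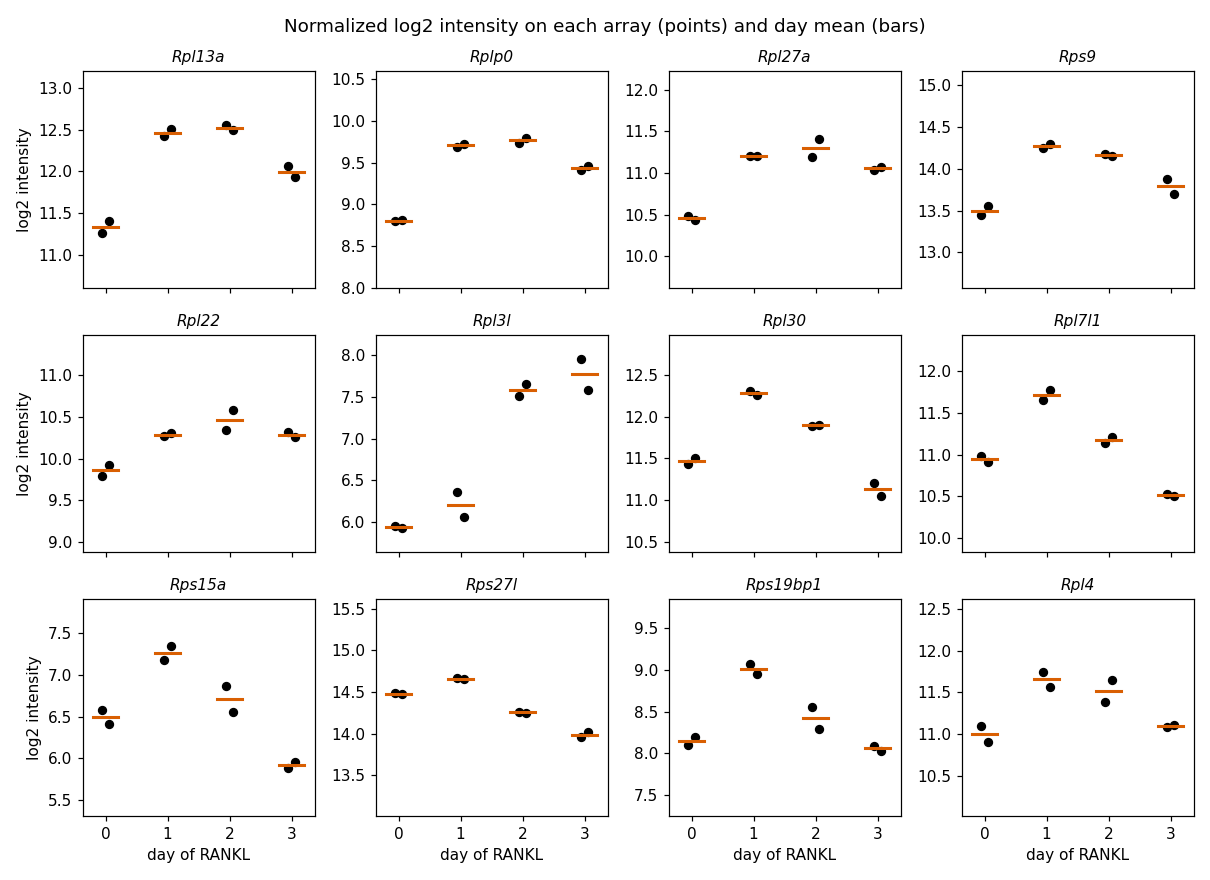
Normalized log2 intensity of 12 genes on each of the 8 arrays by day (points are arrays, bars are day means, and every panel spans the same range in log2 units). Rpl13a, Rplp0, Rpl27a and Rpl22 stay above day 0 to day 3, Rpl3l rises from day 2, and Rpl30, Rpl7l1 and Rps15a peak at day 1 and end below day 0.

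Rps27l, described in human cells as a p53-inducible relative of Rps27, was the member with a bright probe that fell furthest. It measured 14.49 and 14.47 at day 0, 14.67 and 14.65 at day 1, 14.26 and 14.25 at day 2, and 13.96 and 14.02 at day 3. Replicates differed by at most 0.06, and no 2 days overlapped. The changes from day 0 were 0.18 ± 0.08 at day 1 (not called), -0.23 ± 0.08 at day 2 (limma adjusted p = 0.0425) and -0.49 ± 0.08 at day 3 (adjusted p = 0.00137), and it fell by 0.40 between days 1 and 2 (adjusted p = 0.00485). The day 2 call was lost when any of the 8 arrays was left out (-0.24 to -0.21, adjusted p of 0.0573 to 0.139) and with median scaling (-0.17, adjusted p = 0.152).

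Rps27 measured 14.08 and 14.07 at day 0, 14.17 and 14.25 at day 1, 14.19 and 14.07 at day 2, and 13.94 and 13.87 at day 3. Its changes of 0.13, 0.06 and -0.17 were not called. In the pair Rpl36a and Rpl36al, the changes were 0.20, 0.10 and 0.07 for Rpl36a and 0.18, 0.06 and -0.02 for Rpl36al, none of them called.

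Rps19bp1, the binding protein of Rps19, measured 8.10 and 8.20 at day 0, 9.07 and 8.95 at day 1, 8.56 and 8.29 at day 2, and 8.09 and 8.03 at day 3. It rose by 0.86 ± 0.11 at day 1 (limma adjusted p = 0.00101) and fell by 0.58 between days 1 and 2 (adjusted p = 0.00541). At day 3 it changed by -0.09 against day 0, which was not called.

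Other members followed at smaller size. Rps6, the substrate of the S6 kinases, rose by 0.43 ± 0.09 at day 1 (limma adjusted p = 0.00898) and fell by 0.41 between days 2 and 3 (adjusted p = 0.0266). Rpl7a, Rpl24, Rpl29, Rps13, Rps2 and Rps3a1 were also called higher at day 1, by 0.24 to 0.57. Rps3a1 stayed higher at days 2 and 3, by 0.56 and 0.40. Rpl21 had a second probe of similar brightness, at a mean log2 intensity of 7.30 against 7.44. That probe was called higher at day 1 (0.45, limma adjusted p = 0.00572) and lower at day 3 (-0.39, adjusted p = 0.00766). It was also called lower between days 2 and 3 (-0.85, adjusted p = 0.00341). The Rpl21 values that follow are those of the brighter probe. Rpl21 rose by 0.56 ± 0.18 at day 1 (adjusted p = 0.0394), which was lost without either array of days 0, 1 or 2 (0.45 to 0.66, adjusted p of 0.0617 to 0.166), and its fall of 0.66 between days 2 and 3 (adjusted p = 0.0404) was lost without any array but day 3 replicate 1 (-0.70 to -0.39, adjusted p of 0.0537 to 0.154).

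Rpl6 was dim and rested on few detections. It was detected on both day 1 arrays and on no other, so its fall from day 1 to day 2 (log2 change -0.58, limma adjusted p = 0.0184) has only a bound: it was at least 1.06-fold lower, with means of 4.76 at day 2 and 5.34 at day 1. The call was lost without either array of day 1 or day 2 (adjusted p of 0.0622 to 0.0849), without background correction (-0.16, adjusted p = 0.0805) and in the authors' processed values (-0.19, adjusted p = 0.365). Rpsa, the laminin receptor protein of the small subunit, was detected on 3 arrays and not called. Rpl14, Rps23 and Rps23rg1 were, with Rpl17, Rpl39l and Rplp2, detected on no array, with raw signals of 139 to 179 for the 6.

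By the probe that stood for the gene, the smallest range of day means, 0.02 to 0.08, was that of Rpl38, Rps20, Rps12, Rpl22l1 and Rpl23. Rpl22l1 lay near background and its 2 day 0 arrays measured 6.02 and 5.03, and dimmer probes of Rpl38 and Rpl23 were called higher at day 1, by 0.81 and 0.46 (limma adjusted p = 0.000737 and 0.0192). The Rpl38 probe measured 15.14 to 15.17 on all 8 arrays. Of these 5, 4 were also among the brightest probes, at mean log2 intensities of 14.68 to 15.15. Changes at day 1 were smaller where the probe was brighter than 14 than where it was between 10 and 13. Of the 34 members with a mean log2 intensity of 14 or more, 3 were called higher at day 1 and their median change was 0.09. Of the 8 between 10 and 13, 7 were called and the median was 0.70. The 9 under 10 had 5 calls and a median of 0.39, and the 9 between 13 and 14 had 3 calls and a median of 0.20.

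Over the 57 members detected on all arrays, mean log2 intensity and day 1 change had a Pearson's r of -0.67 and a Spearman's rho of -0.73, a description across genes that share the 8 arrays. Over all 60 members they were -0.35 and -0.58. For the step from day 2 to day 3 the values were 0.44 and 0.52 over the 57, and 0.20 and 0.37 over the 60. Genes outside the list at 14 or more were called in 30.6% of cases at day 1 (10 higher and 12 lower of 72), against 8.82% of the members there. The highest signals on the arrays were 40502 to 43559, and 40 to 42 members lay in the top 1% of probes on each; saturation was not tested.

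**Figure D3:**
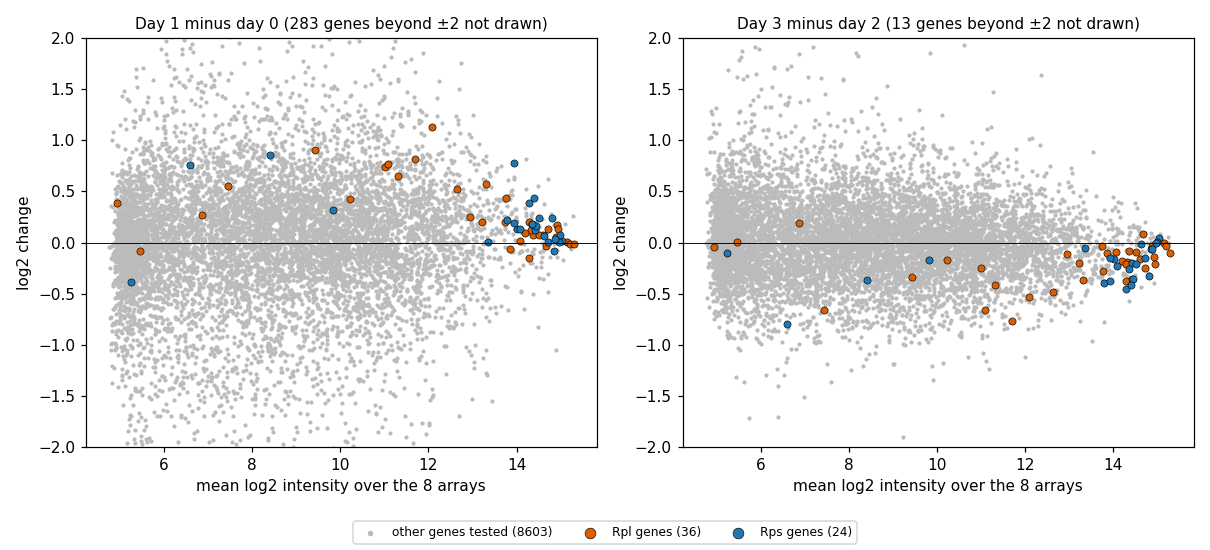
Log2 change (vertical axis, drawn from -2 to 2) against mean log2 intensity over the 8 arrays for ribosomal protein genes (coloured) and the other genes tested (grey), for day 1 minus day 0 (left) and day 3 minus day 2 (right). The 34 members at 14 or more have medians of 0.09 at day 1 and -0.16 for day 3 minus day 2, and the 8 members between 10 and 13 have 0.70 and -0.45.

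Some genes had more than 1 probe under the same symbol; the positions of these probes were not compared here, and they need not read the same transcript. For 10 members 2 or more probes were detected on all arrays, and the dimmest was compared with the brightest in a limma fit of the difference over 1692 such genes, a comparison chosen after the values above were seen. At day 1 the dimmer probe changed by more in 8 of 10 members. The difference was called in 3, all with the dimmer probe above the brighter, where 1.00% of the 1692 genes were called in that direction and 0.473% in the other. At day 2 the same 3 were called, against 1.24% in that direction and 0.709% in the other.

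Rps19, a small subunit protein mutated in Diamond-Blackfan anaemia, differed most. Its dimmer probe measured 6.52 and 6.40 at day 0, 8.14 and 8.01 at day 1, 7.29 and 7.02 at day 2, and 6.05 and 6.14 at day 3, while its brighter probe stayed between 14.90 and 15.08. The day 1 changes were 1.62 and 0.07, a difference of 1.54 ± 0.14 (limma adjusted p = 0.000841). Between days 2 and 3 the changes were -1.06 for the dimmer and 0.01 for the brighter probe, a difference of -1.07 ± 0.14 (adjusted p = 0.0197), where 0.0591% of the 1692 genes were called with the dimmer probe below and 0.177% above.

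Rps24, of the same subunit, had a dimmer probe at 8.76 and 8.60 at day 0, 10.06 and 10.15 at day 1, 9.67 and 9.57 at day 2, and 8.73 and 8.99 at day 3, and a brighter one between 14.75 and 15.01. The day 1 changes were 1.42 and -0.09, a difference of 1.51 ± 0.15 (limma adjusted p = 0.00130). For Rpl38 they were 0.81 and 0.01, a difference of 0.81 ± 0.13 (adjusted p = 0.0222).

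Rps9 had the opposite order at day 1, 0.19 for the dimmer and 0.78 for the brighter probe, without a call (difference -0.59 ± 0.20, limma adjusted p = 0.172). At day 3 the difference was called only for Rpl7l1 among the 10 (0.80 ± 0.17, adjusted p = 0.0358), with 2.78% of the 1692 genes called with the dimmer probe above and 2.19% below. With the brightest probe of each gene 18 members were called higher at day 1, and with the dimmest probe detected on all arrays 21.

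**Figure D4:**
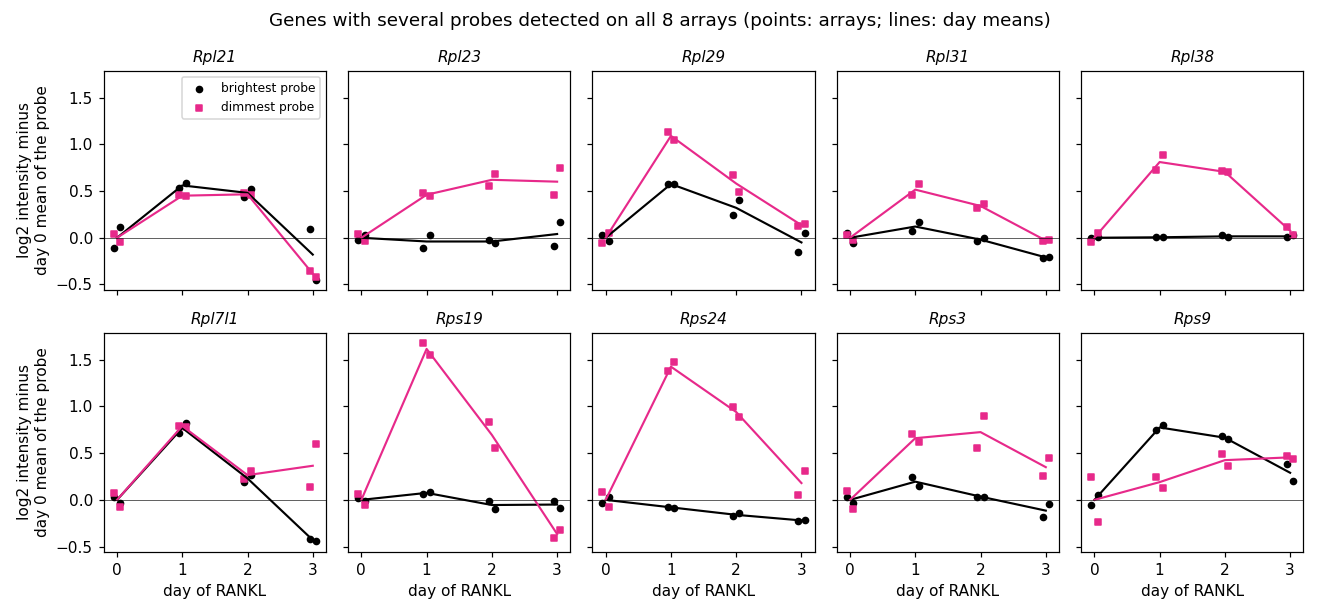
Log2 intensity minus the day 0 mean of the same probe for the brightest (black) and dimmest (pink) probe of 10 ribosomal protein genes, by day (points are arrays, lines join day means). The dimmer probes of Rps19, Rps24 and Rpl38 rise by 1.62, 1.42 and 0.81 at day 1, while the brighter ones change by 0.07, -0.09 and 0.01.

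Of 20 ribosomal protein genes listed as mutated in Diamond-Blackfan anaemia, a failure of red cell production, 13 were measured. By their brightest probes, Rps15a was the 1 member called at day 1, as higher, where 24.0% of all genes tested rose and 21.9% fell. The dimmer probes of Rps19, Rps24 and Rpl31 rose by 1.62, 1.42 and 0.51 (limma adjusted p = 9.76e-05, 0.000160 and 0.00364). By the brightest probes 0 were called at day 2 (limma, adjusted), where 27.8% of all genes tested rose and 26.6% fell. At day 3, 3 were called lower by these probes, where 29.2% of all genes tested rose and 29.8% fell. They were Rps15a, Rps26 (-0.29 ± 0.09, limma adjusted p = 0.0295) and Rps24 (-0.23 ± 0.08, adjusted p = 0.0405). At an unadjusted p under 0.05 the day 2 count by the brightest probes was also 0. The dimmer probes of Rps19, Rps24 and Rpl31 were called higher at day 2, by 0.70, 0.94 and 0.34 (limma adjusted p = 0.00285, 0.000646 and 0.0179). At day 3 the dimmer probe of Rps24 changed by 0.18 (limma adjusted p = 0.253) and that of Rps19 by -0.37 (adjusted p = 0.0388). That of Rpl31 changed by -0.03 (adjusted p = 0.797). Fau, the only one of 3 ribosomal proteins with other symbols that was tested, changed by 0.26, 0.18 and -0.06 and was not called.

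Genes that work with the ribosomal proteins were read from lists, whose counts stand beside the same background: 24.0% of all genes tested rose and 21.9% fell at day 1, 27.8% and 26.6% at day 2, and 29.2% and 29.8% at day 3. Of 19 tested genes listed under translation elongation and other mRNAs with a pyrimidine-rich start, 14 rose and 0 fell at day 1. The counts were 14 and 0 also at an unadjusted p under 0.05, and the median was 0.51 against 0.03 for all genes tested. Eif4b, a helper of the initiation helicase, rose by 1.36 ± 0.28 (limma adjusted p = 0.00723) and the RNA-binding protein Hnrnpa1 by 1.23 ± 0.08 (adjusted p = 5.97e-05). Eef1e1, an elongation factor by its symbol only, rose by 0.95 ± 0.08 (adjusted p = 0.000142). At day 2, 7 were higher and 2 lower, with a median of 0.18, and at day 3, 5 were higher and 3 lower, with a median of -0.08. Pabpc1, the poly(A)-binding protein, was still 0.91 ± 0.12 above day 0 at day 3 (adjusted p = 0.000690), while the histone chaperone gene Nap1l1 was at -1.21 ± 0.12 (adjusted p = 0.000116).

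Assembly factors load the ribosomal proteins onto the growing particle. Of 18 tested, 15 rose and 0 fell at day 1 with a median of 0.85 (16 and 0 at an unadjusted p under 0.05, limma), and at day 3, 0 were higher and 11 lower than at day 0 with a median of -0.49 (0 and 12 unadjusted). Nle1, a maturation factor of the large subunit, rose by 1.46 ± 0.10 at day 1 (limma adjusted p = 6.74e-05). Nucleolin, Ncl, rose by 1.34 ± 0.08 at day 1 (adjusted p = 3.56e-05) and was at -0.80 ± 0.08 at day 3 (adjusted p = 0.000158). Tsr2, which carries Rps26, rose by 1.11 ± 0.09 (adjusted p = 0.000120), and Grwd1, which carries Rpl3, by 1.20 ± 0.12 (adjusted p = 0.000335). Their clients Rps26 and Rpl3 changed by 0.16 and 0.08 and were not called. The Rps26 and Rpl3 probes had mean log2 intensities of 14.45 and 14.51, in the class of 14 or more, where 8.82% of members were called at day 1. The part of probe brightness in this contrast was not tested.

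Of 14 tested genes of the RNA polymerase I machinery, which transcribes ribosomal RNA, 10 rose and 0 fell at day 1 (median 0.68; the same counts at an unadjusted p under 0.05), and at day 3, 2 were higher and 4 lower (median -0.08). Polr1e rose by 1.09 ± 0.11 at day 1 (limma adjusted p = 0.000335) and was at -0.91 ± 0.11 at day 3 (adjusted p = 0.000407). Of 13 genes of mTOR and MYC control, 4 rose and 2 fell at day 1 (median 0.19), and 1 was higher and 4 lower at day 3 (median -0.20), where 24.0% of all genes tested rose and 21.9% fell at day 1, and 29.2% and 29.8% at day 3. The translation repressor gene Eif4ebp1 was the one still higher, by 2.13 ± 0.10 (adjusted p = 4.04e-06), and the kinase gene Rps6ka3 was at -1.07 ± 0.17 (adjusted p = 0.00156). These lists were chosen with earlier results of these data known, and the difference between lists was not tested.

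**Figure D5:**
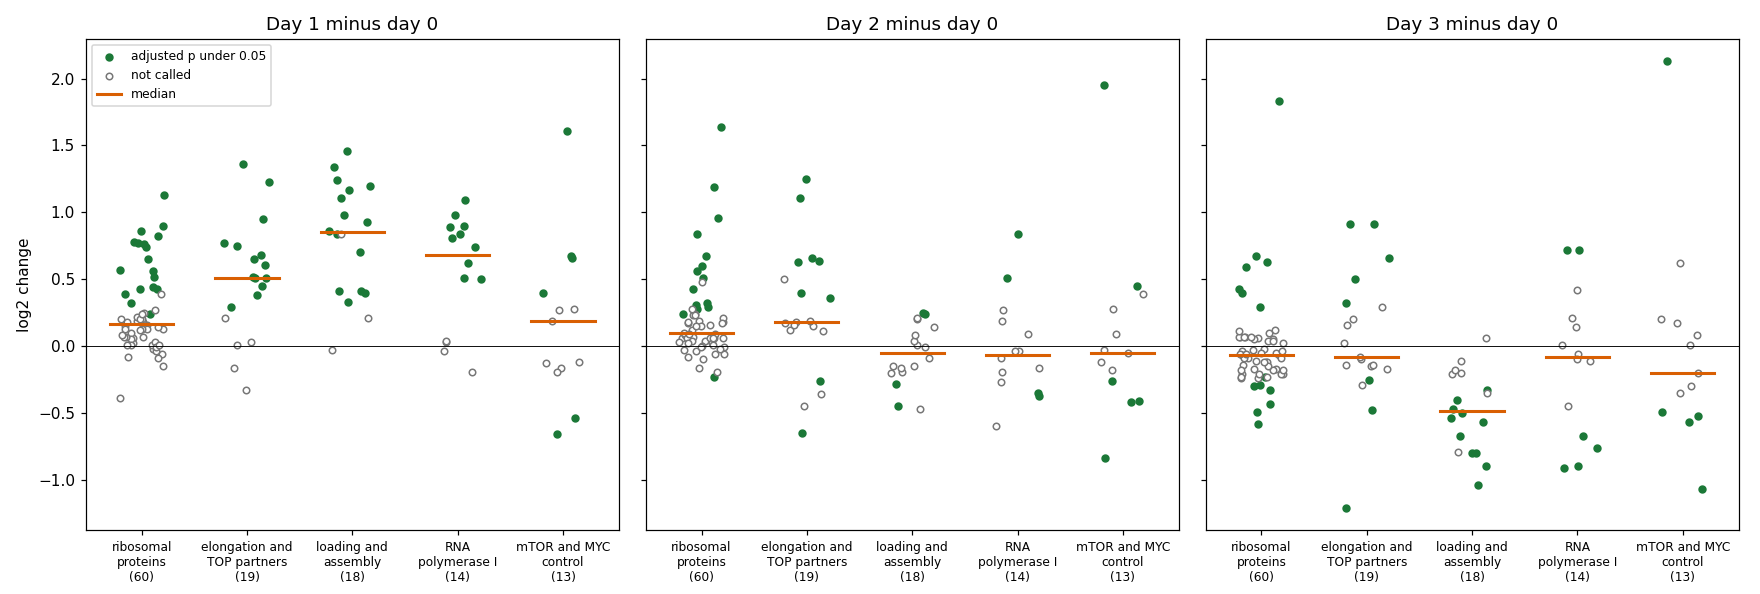
Log2 change from day 0 at days 1, 2 and 3 for the 60 ribosomal protein genes and 4 lists of partner genes (points are genes, filled where the adjusted p is under 0.05; bars are medians). At day 1 the medians are 0.17 for ribosomal proteins and 0.85 for assembly factors, and at day 3 they are -0.07 and -0.49. Each gene is shown by its brightest probe, and 34 of the 60 ribosomal protein probes had a mean log2 intensity of 14 or more.

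The ribosome of the mitochondrion has its own proteins, with symbols Mrpl and Mrps. Of 71 tested, 54 rose and 0 fell at day 1 with a median of 0.48 (57 and 0 at an unadjusted p under 0.05), where 24.0% of all genes tested rose and 21.9% fell. At day 3, 28 were higher and 9 lower than at day 0 with a median of 0.19, where 29.2% of all genes tested were higher and 29.8% lower. Between days 2 and 3, 0 rose and 18 fell by limma with a median of -0.23 (0 and 31 unadjusted), where 10.6% of all genes tested rose and 11.3% fell. The 60 cytosolic members had a median of -0.18 for that step.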

How the data were processed

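Total RNA of the 8 samples was labelled as biotinylated cRNA and hybridised to 1-colour Illumina MouseRef-8 v2.0 bead arrays, per the labels' protocols. The deposited non-normalized table gives, per the file headers, an intensity (mean bead signal) and a detection p-value for each of 25697 probes; these deposited p-values say whether a probe exceeds the negative controls. The deposited processed values equal that intensity less an offset that differs between arrays and probes, from the values, and were used as an alternative. The steps and software behind both tables are not given in the sources used here.

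Intensities were background-corrected by normexp from the detection p-values (offset 16), quantile normalized and log2 transformed (limma 3.58.1, R 4.3.3). Probes detected at p under 0.05 on 2 or more arrays were kept, 1 a gene by highest mean signal, and 1719 probes without a symbol were left out, giving 8663 genes. One limma fit (lmFit, eBayes) over the 4 days, with 4 residual degrees of freedom and Benjamini-Hochberg adjustment per comparison, gave all calls; errors are SEs of the difference with n = 2 arrays a day. The number of arrays limits the precision. On simulated data for the day 1 comparison (8663 genes), 20.0% of genes changed by 0.5 and 86.0% changed by 1 on the log2 scale were called. Symbols came from the platform annotation.

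The members and lists were chosen with earlier results of these data known. Named members were the 5 largest called rises and falls a comparison with day 0 (3 between consecutive days) without overlap of arrays, the stalk, tunnel, 5S and paralogue groups, Rps19bp1, and the 5 with the smallest range; others named in the text were chosen after their values were seen. Of the ubiquitin fusion proteins 0 of 2 were tested. Alternatives covered background, normalization, the probe and detection filters, the variance model, the replicate block, each array left out and the threshold.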

Additional observations from a re-analysis of the deposited data

How the results depend on the processing

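The number of rises at day 1 (18) was 12 to 29 under every alternative run, and falls at day 1 were 0 in all of them except 1 without day 0 replicate 1. With 1 array left out the counts ranged from 21 to 24 for the F test (28), 12 to 16 for rises and 0 to 1 for falls at day 1, 9 to 12 for rises and 0 to 0 for falls at day 2 (14 and 1), 4 to 7 and 3 to 6 at day 3 (7 and 7), 3 to 6 for falls between days 1 and 2 (6), and 2 to 12 for falls between days 2 and 3 (15). A lone array was then assumed to vary like the other days. At an adjusted p under 0.01 they were 18 for the F test, 8 and 0 at day 2, 4 and 3 at day 3, and 3 falls for each consecutive step. Trended robust variances gave 29 rises at day 1, 23 and 2 at day 2, 20 falls at day 3, 3 rises and 13 falls between days 1 and 2, and 33 falls between days 2 and 3. Of all genes tested, 26.7% then rose at day 1, 31.6% fell at day 3 and 15.7% fell between days 2 and 3. Without background correction falls were 16 at day 3 and 23 between days 2 and 3, with 3 rises between days 1 and 2. The falls over all genes tested were then 31.2% and 15.1%, and the rises 24.8%. Cyclic loess gave 9 and 2 at day 2, 7 falls between days 2 and 3, and medians of 0.12 at day 1, -0.01 at day 3 and -0.06 between days 2 and 3. Median scaling gave 0 falls at day 2, 4 at day 3, and medians of 0.29, 0.16 and -0.02 at days 1 to 3 and -0.12 between days 1 and 2. No normalization gave 0 falls at day 2 and medians of 0.27, 0.16 and -0.11 (days 1, 2, and between them). Detection on all 8 arrays gave 11 falls at day 3. That filter, detection p under 0.01, the offset of 50, the mean of probes and the processed values each gave 2 rises between days 1 and 2. No filter gave 0 falls at day 2, 4 at day 3 and 7 between days 2 and 3, and the 4 arrays compared alone gave 0, 3 and 5. The falls over all genes tested between days 2 and 3 were then 3.81% and 5.48%, against 11.3% in the main fit. The mean of probes had a day 2 median of 0.16, and the dimmest probe 0.17 with 0 falls. Without the top 1% of signal 19 members were left, with 13 rises at day 1 and 15 F calls. Their falls were 0, 3 and 8 (day 2, day 3, days 2 to 3) and their medians 0.56, 0.32 and -0.34 (day 1, day 2, days 2 to 3). Without members at 14 or more 26 were left, with 15 rises at day 1 and 18 F calls. Their falls were 0, 3 and 9 and their medians 0.43, 0.28, 0.02 (day 3) and -0.26. Without paralogues and Rps19bp1 there were 0 falls at day 2, and 0 rises and 3 falls between days 1 and 2. The causes were not tested. The 45 calls for named members and their other comparisons were checked 2400 times in the settings other than leaving 1 array out. A call was lost in 55 checks and gained in 76, and 7 checks reversed in sign. With the dimmest probe these were Rpl23 at days 1 and 2 (0.46 and 0.62) and Rpl7l1 at day 3 (0.37) and between days 2 and 3 (0.10). Between days 2 and 3 they were also Rpl38 (-0.63) and Rps9 (0.03), and with the mean of probes Rpl38 (-0.31). The main fit had called none of these Rpl23 and Rpl38 changes. Settings that only left out members reused the main fit, and comparisons called in neither fit counted as unchanged. Such checks could not show a change. The dimmest probe and the cut at 14 were chosen after seeing the data. Correlations of replicate deviations between days were -0.08 to 0.07 over all genes tested and -0.13 to 0.20 over the members. Such values cannot show whether replicate numbers pair the samples, which the labels do not give. The replicate block took the fall at day 2 to 0. The chip as a block was not run, since the file headers used here name none. Signal over background limits Rpl6, Rpsa and Rpl22l1, detected on 2, 3 and 6 arrays.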

Other observations

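Kinase genes with Rps6k symbols, which the symbol rule leaves out, gave 2 tested genes, Rps6ka3 of the RSK kinases and Rps6ka5 of the MSK kinases, known for phosphorylating CREB and histone H3. Rps6ka3 measured 8.29 and 8.08 on the log2 scale at day 0, 7.53 and 7.51 at day 1, 7.40 and 7.30 at day 2, and 6.86 and 7.38 at day 3, so that every later array lay below day 0, with changes of -0.66 ± 0.17, -0.84 ± 0.17 and -1.07 ± 0.17 (limma adjusted p = 0.0185, 0.00563 and 0.00156). Rps6ka5 measured 7.02 and 6.83 at day 3 and 7.25 and 7.50 at day 0, a change of -0.45 ± 0.15 (limma adjusted p = 0.0366); at days 1 and 2 it changed by -0.14 and -0.40 and was not called.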
